A study of Homo sapiens with 16 samples.

Results

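The ARP2/3 complex is built from ARPC1A or its paralog ARPC1B, ARPC2, ARPC3, ARPC4, ARPC5 or its paralog ARPC5L, and the actin-related proteins ACTR2 and ACTR3, which makes 9 genes. The set was chosen by the translational efficiency (TE) of ARPC1A, which stood out as higher in the lung-metastatic line MDA-LM2, and the question was whether its paralog and partners moved with it. Transcript identifiers were matched to gene symbols by annotation, and 8 of the 9 genes were matched among the 10823 transcripts listed over both tables. ARPC1B was not matched and is not analysed here, so the paralog of ARPC1A was not compared. It may still be in the tables, since 224 identifiers of the first and 192 of the second are not in the annotation used and were given no gene name. The RNA, footprint and TE values of ARPC1A in MDA-LM2 against parental cells are what chose it, and they are given as a description with no test. The other 7 genes were taken because they belong to the complex, not for their values.

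The ARP2/3 complex nucleates a new actin filament on the side of an existing one, and so makes the branched networks that push the membrane forward in lamellipodia and invadopodia. ACTR2 and ACTR3 resemble actin and form the start of the branch. ARPC2 and ARPC4 make the scaffold that holds the mother filament, ARPC3 sits beside ACTR3, ARPC5 tethers ACTR2, and ARPC1 is a beta-propeller subunit that contacts activators of the WASP family. The complex is inactive until such activators, themselves switched on by the GTPases RAC1 and CDC42, bind it.

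The study profiled ribosome footprints and RNA in 4 cultured human breast cancer lines. MDA-MB-231, used as the parental line, is triple-negative and labelled as poorly metastatic, and MDA-LM2 is a single derivative of it that colonises the lung, so its differences from parental cells may belong to the line as well as to metastatic capacity. Both CRISPR interference lines are MDA-MB-231 cells that express dCas9-KRAB, a silencing protein, with puromycin selection for a non-targeting guide (sgControl) or for one that targets HNRNPC (sgHNRNPC). HNRNPC is an RNA-binding protein with a preference for runs of U. Each line had 2 libraries of ribosome-protected footprints (RPF) and 2 of RNA, the RNA being isolated from the lysates used for footprinting. The study's methods call the replicates biological duplicates. Neither they nor the labels say whether these were separate cultures, and p-values measure only the spread between these samples.

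Values are normalised read counts per transcript, in one table that holds parental with MDA-LM2 cells and another that holds sgControl with sgHNRNPC cells. TE is the footprint value divided by the RNA value, and a TE change is the log2 footprint change minus the log2 RNA change. The RNA libraries rested on 7517953 to 8193031 reads in the first table and on 5141959 to 6164753 in the second, while the number of footprints behind the RPF values is unknown. The median RPF value of a transcript was 28.1 to 28.4 in the first table and 9.40 to 9.50 in the second, so the footprints of the knockdown comparison rest on lower values. All 5 markers of MDA-MB-231 cells (VIM, CD44, KRT8, KRT18 and ANXA1) were listed in both tables, 0 of 2 leukocyte and 0 of 2 endothelial markers were, and of 5 hormone receptor or epithelial markers 2 were listed at RNA values of 46.5 or less in the first table and 1 at 86.9 or less in the second. HNRNPC RNA in sgHNRNPC cells was 54.1% of that in sgControl cells.

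The 8 transcripts differ in the bases around their start codons, which are shown because the subunits also differ in TE. A link between these bases and TE was not tested. Each line gives 9 bases before the ATG and 2 after it, from the GENCODE transcript on hg38, with the start codon in capitals.
ARPC1A: ctaagaataATGtc
ARPC2: gccgccgccATGat
ARPC3: gccgccaagATGcc
ARPC5: gggattgggATGtc
ARPC5L: gctcccgccATGgc
ACTR2: gggcggacgATGga
ACTR3: aggaggaagATGgc

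A purine at position -3 and a G at position +4, the bases that favour initiation most, were both present in ARPC5L, ACTR2 and ACTR3, as in 46.6% of 10414 listed transcripts with at least 9 bases before the ATG. ARPC1A, ARPC2, ARPC3 and ARPC5 had the purine without the G, as did 39.5% of those transcripts. ARPC4 has an annotated leader of 5 bases, too short for this window. ARPC1A (ENST00000262942, chr7:99325898-99366262, plus strand) has 10 exons, a leader of 136 bases, a coding sequence of 1113 bases and a 3′ UTR of 333 bases. ACTR3 (ENST00000263238, chr2:113890089-113962596, plus strand) has the longest 3′ UTR of the 8, at 5141 bases, and ACTR2 (ENST00000377982, chr2:65227837-65270146, plus strand) has the next longest, at 1412 bases. ARPC5 (ENST00000294742, chr1:183626458-183635757, minus strand) and ARPC5L (ENST00000259477, chr9:124869205-124877717, plus strand) have coding sequences of nearly the same length, 465 and 462 bases, and lie on different chromosomes. ARPC2 (ENST00000315717, chr2:218217189-218254348, plus strand), ARPC3 (ENST00000228825, chr12:110434823-110450337, minus strand) and ARPC4 (ENST00000433034, chr3:9793117-9806572, plus strand) code for 903, 537 and 564 bases. The coding lengths include the stop codon as annotated.

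Because HNRNPC binds runs of U, the annotated 3′ UTRs were searched on the transcript strand for CUUUUUU. Of 10544 listed transcripts, 42.9% held it. ARPC4 and ACTR2 held 1 copy each, ACTR3 held 2, and the other 5 subunits held 0. The windows below give 10 bases on either side of the match, which is in capitals, with the position of its first base in the 3′ UTR in the name.
ARPC4 at 301: accuuuuuguCUUUUUUuuuuuuuuuu
ACTR2 at 38: guaaugcuuuCUUUUUUccuuuauugc
ACTR3 at 1602: caaaggucucCUUUUUUuacuuggaaa
ACTR3 at 4692: cgaauuacgaCUUUUUUucuguuccac

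The share of transcripts with a match rose with 3′ UTR length. It was 86.8% of 774 transcripts whose 3′ UTR was within 20% of the length of that of ACTR3, 47.4% of 1354 for ACTR2, 11.9% of 814 for ARPC4 and 11.4% of 784 for ARPC1A. These letters mark no measured binding.

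Subunits that assemble in fixed proportion were far from equal in RNA per kb of annotated transcript. Levels are compared per kb, of the transcript for RNA and of the coding sequence for footprints. In parental cells the normalised RNA count per kb was highest for ARPC2, at 2377 ± 117 (SD, n = 2), followed by ARPC3 at 1560 ± 17.8. ARPC4, ARPC1A, ARPC5 and ARPC5L came next at 762 ± 30.5, 730 ± 65.4, 729 ± 4.86 and 673 ± 77.5, and the replicates of each overlapped those of its neighbour in this order. ACTR2 at 205 ± 16.9 and ACTR3 at 183 ± 3.45 were lowest. The highest subunit thus had 13.0 times the RNA per kb of the lowest. This ratio and the order of subunits depend on the annotated lengths, and the lengths in these cells were not measured. The transcript of ACTR3 is annotated at 6589 bases, of which 5141 are 3′ UTR, so a shorter 3′ UTR in use would raise its RNA per kb. This order did not hold in sgControl cells. There ARPC3 was highest at 1572 ± 4.37 and ACTR3 lowest at 211.5 ± 5.00, while ARPC2 had 746 ± 15.9 and ACTR2 718 ± 9.25.

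Footprints per kb were closer together, with a highest-to-lowest ratio of 6.20 in parental cells. ARPC3 was highest there, at a normalised footprint count per kb of 351 ± 14.4 (SD, n = 2), and ARPC5 followed at 256 ± 39.8. ACTR2, ACTR3, ARPC4 and ARPC2 had 191 ± 12.4, 188 ± 23.5, 161 ± 26.6 and 141 ± 2.31, and the replicates of each overlapped those of the next. ARPC5L had 76.5 ± 14.7. ARPC1A was last at 56.5 ± 13.1, below both replicates of every other subunit. In the other lines ARPC3 was again highest in footprints per kb, and the highest-to-lowest ratio was 4.05 in MDA-LM2, 5.52 in sgControl and 5.22 in sgHNRNPC cells.

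TE per kb of annotated length therefore differed widely within the complex, and the order of subunits in it depends on those lengths. Among 8208 tested genes of the first table with both lengths annotated, ACTR3 and ACTR2 stood at the 92.8 and 91.1 percentile of TE per kb in parental cells, and ARPC2 at the 5.82 percentile. ARPC5, ARPC3, ARPC4 and ARPC5L stood at 63.0, 44.7, 41.9 and 19.3. ARPC1A stood at the 9.37 percentile in parental cells and at 48.3 in MDA-LM2 cells, while the other 7 subunits moved little, the most being ARPC4, to 38.1. In sgControl and sgHNRNPC cells ARPC1A was the lowest subunit in TE, at the 2.36 and 2.15 percentile of 4190 genes. The order of the others there was not that of parental cells. In sgControl cells ACTR3 stood at 83.4 and ARPC4 at 59.1, but ACTR2 at 22.1. ARPC3, ARPC5 and ARPC2 stood at 25.3, 19.2 and 14.7.

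**Figure D1:**
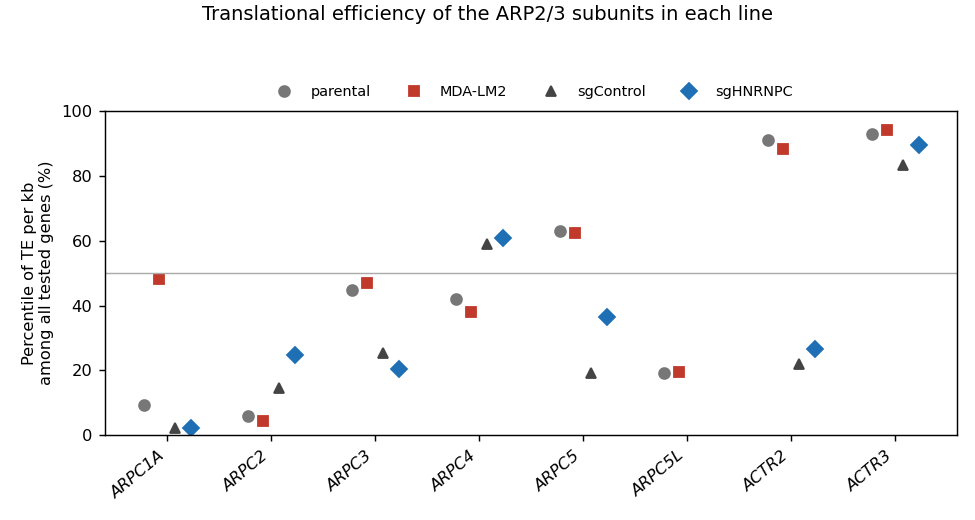
Percentile of TE per kb of each ARP2/3 subunit among all tested genes (vertical axis, 0 to 100%) in parental, MDA-LM2, sgControl and sgHNRNPC cells, each point the mean of 2 replicates. ARPC1A lies at 9.37 in parental and 48.3 in MDA-LM2 cells, the other subunits keep their place between these lines, and ARPC5L has no point in the knockdown table because its footprint values fell under the filter.

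MDA-LM2 and parental cells were compared to find what changes as cells become highly metastatic. ARPC1A RNA was 1081 and 1227 in the parental replicates and 688 and 742 in the MDA-LM2 replicates. Its footprints were 52.6 and 73.3 in parental and 125 and 127 in MDA-LM2 cells. Its TE was 0.0487 and 0.0597 in parental and 0.182 and 0.171 in MDA-LM2 cells. Both MDA-LM2 replicates were lower in RNA, higher in footprints and higher in TE than both parental replicates. In bulk libraries a lower level in each cell and fewer cells with the transcript cannot be told apart. The log2 change was -0.69 ± 0.12 (SE) in RNA, to 62.1% of parental, 1.01 ± 0.16 in footprints, a fold of 2.01, and 1.70 ± 0.22 in TE, a fold of 3.24. Among the rises in TE over 8393 genes tested this was the fourth in size.

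RNA and footprints of ARPC1A thus moved apart. By size alone, 888 genes had an RNA change of -0.5 or lower on the log2 scale and 866 had a footprint change of 0.5 or higher, and 5 genes, ARPC1A among them, had both. These counts come from the contrast that chose ARPC1A and are given as a description.

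Set against its partners in the same library, ARPC1A had 0.264 and 0.362 times the median footprint count per kb of the other 7 subunits in the parental replicates. The ratio was 0.790 and 0.736 in MDA-LM2 cells, so that its footprints came near those of ARPC2, whose replicates overlapped them. It was 0.465 and 0.434 in sgControl cells. In RNA the same ratio was 0.933 and 1.07 in parental, 0.664 and 0.696 in MDA-LM2 and 1.03 and 1.04 in sgControl cells. These ratios are taken within libraries, so no scaling between libraries enters them.

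**Figure D2:**
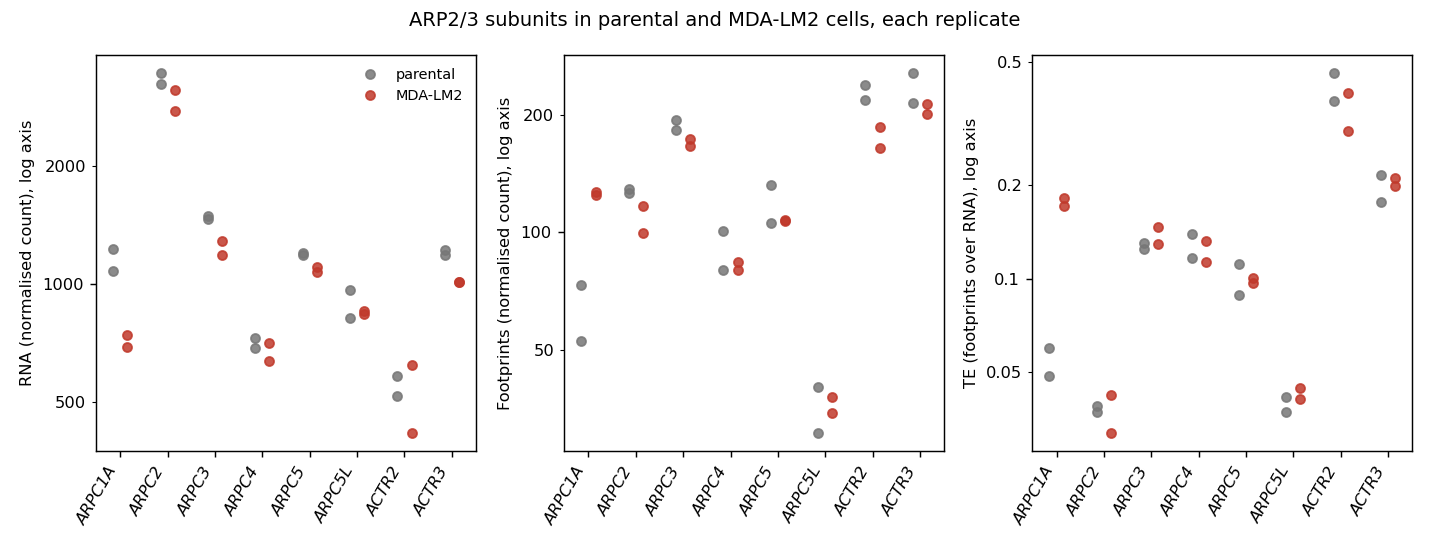
Normalised RNA count, normalised footprint count and TE (vertical axes, log scale) of the 8 subunits, with each point a replicate of parental (grey) or MDA-LM2 (red) cells. ARPC1A falls in RNA from 1081 and 1227 to 688 and 742 and is higher in footprints and TE in both MDA-LM2 replicates, while the TE replicates of the other 7 subunits overlap between the lines.

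No partner had a called TE change. For the other 7 subunits the TE change lay between -0.27 (ACTR2) and 0.11 (ARPC5L) on the log2 scale, with a median of -0.0057 against 0.033 over all genes tested. By limma, 0 of 7 passed an adjusted p under 0.05, where 0.0357% of 8393 genes did. At an unadjusted p under 0.05 the count was 0 of 7, against 455 of all genes. Logistic regression on the same genes called 0 of 7, and its share of calls over all genes is not given. In 0 of 7 were both MDA-LM2 replicates outside the parental ones in TE, which held for 36.3% of all genes. The 95% intervals leave room for moderate changes: their upper ends ran from a fold of 1.19 for ACTR2 to 1.53 for ARPC5L. The fold of 3.24 of ARPC1A is what chose it and was not tested against them.

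ARPC5 and ARPC5L are paralogs that occupy the same place in the complex. ARPC5 RNA was 1199 and 1188 in parental and 1071 and 1104 in MDA-LM2 cells, and ARPC5L RNA was 965 and 819 against 853 and 836. ARPC5 footprints were 106 and 132 in parental and 108 and 107 in MDA-LM2 cells, and ARPC5L footprints were 40.2 and 30.6 against 37.9 and 34.4. The lines overlapped in footprints for both genes. Their TE changes were -0.01 ± 0.18 (SE) and 0.11 ± 0.23 on the log2 scale, with adjusted p of 0.996 and 0.965 by limma. The ratio of ARPC5 to ARPC5L per kb was 2.62 and 4.29 in parental and 2.83 and 3.09 in MDA-LM2 footprints, and 1.01 to 1.17 in the RNA of both lines.

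ACTR2 was the subunit that changed in footprints. Its values were 239 and 218 in parental and 165 and 186 in MDA-LM2 cells, and both MDA-LM2 replicates were lower. The log2 change was -0.38 ± 0.12 (SE), or 76.8% of the parental level (adjusted p 0.0272, limma). It was -0.33 after rescaling to equal totals and -0.31 after quantile normalisation, with adjusted p of 0.0601 and 0.0896, and -0.31 and -0.30 without parental replicate 1 and without MDA-LM2 replicate 1, with adjusted p of 0.216 and 0.2. ACTR2 RNA was 518 and 583 in parental and 415 and 621 in MDA-LM2 cells, so the lines overlapped. Its TE change was -0.27 ± 0.24 (SE).

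ACTR3, its partner in the branch, had footprints of 215 and 257 in parental and 201 and 213 in MDA-LM2 cells, and the log2 change was -0.18 ± 0.12 (SE; adjusted p 0.341, limma). Its RNA was 1219 and 1187 against 1013 and 1009, with both MDA-LM2 replicates lower. In RNA the log2 change was -0.25 ± 0.10 (SE; adjusted p 0.15, limma). The footprint ratio of ACTR3 to ACTR2 per kb stayed between 0.859 and 1.16 in the 4 libraries.

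ARPC2 and ARPC3 had the most RNA per kb of the subunits in parental and MDA-LM2 cells. ARPC2 RNA was 3469 and 3235 in parental and 3130 and 2766 in MDA-LM2 cells, and ARPC3 RNA was 1464 and 1488 against 1287 and 1187. Both genes were lower in both MDA-LM2 replicates, by 0.19 ± 0.12 and 0.26 ± 0.11 (SE) in log2 units, with adjusted p of 0.325 and 0.156 by limma. ARPC2 footprints were 129 and 126 in parental and 99.5 and 117 in MDA-LM2 cells, and ARPC3 footprints were 183 and 194 against 166 and 174. In footprints too both were lower in both MDA-LM2 replicates, without passing the test: the log2 changes were -0.24 ± 0.14 and -0.15 ± 0.12 (SE), with adjusted p of 0.287 and 0.476 by limma. ARPC4 RNA was 725.4 and 685.5 in parental and 707.5 and 634 in MDA-LM2 cells, its footprints were 101 and 79.9 against 80.2 and 84.1, and both overlapped. ARPC4 shares 36.2% of its exon bases and 58.5% of its coding bases with the read-through transcript ARPC4-TTLL3, which is listed separately, so reads of the shared part could have gone to either.

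In the 7 partners together, footprints were called lower in 1 gene (ACTR2) and higher in 0, where 7.03% of all genes were called lower, 5% higher and 12% in either direction. The median SE in footprints was 0.138 in the 7 and 0.221 over all genes. Of all footprint calls 41.6% were higher, and 54.3% with equal totals. Both MDA-LM2 replicates were below both parental ones in 4 of 7, and for 27.6% of all genes. In RNA, 0 of 7 passed by limma, where 15.2% of all genes did, and 2 of 7 (ARPC3 and ACTR3) had an unadjusted p under 0.05, against 2673 of 8393 genes. The RNA changes lay between -0.26 and -0.074 on the log2 scale, with a median of -0.14 against -0.020 over all genes. Both MDA-LM2 replicates were lower in RNA in 4 of 7, and for 33.6% of all genes. With equal library totals the median gene shifted by 0.17 in RNA, and 4 of the 7 subunits were then above 0. Relative to the median gene, 7 of 7 were lower in RNA under the deposited scaling, equal totals and quantile normalisation. The median of the 7 was 0.035 against 0.149 over all genes with equal totals. After quantile normalisation it was -0.027 against 0.027. The subunits were not compared with genes of like RNA level. Without MDA-LM2 replicate 1, 3 subunits (ARPC2, ARPC3 and ACTR3) were called lower in RNA, and without MDA-LM2 replicate 2, ACTR2 and ACTR3 were.

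**Figure D3:**
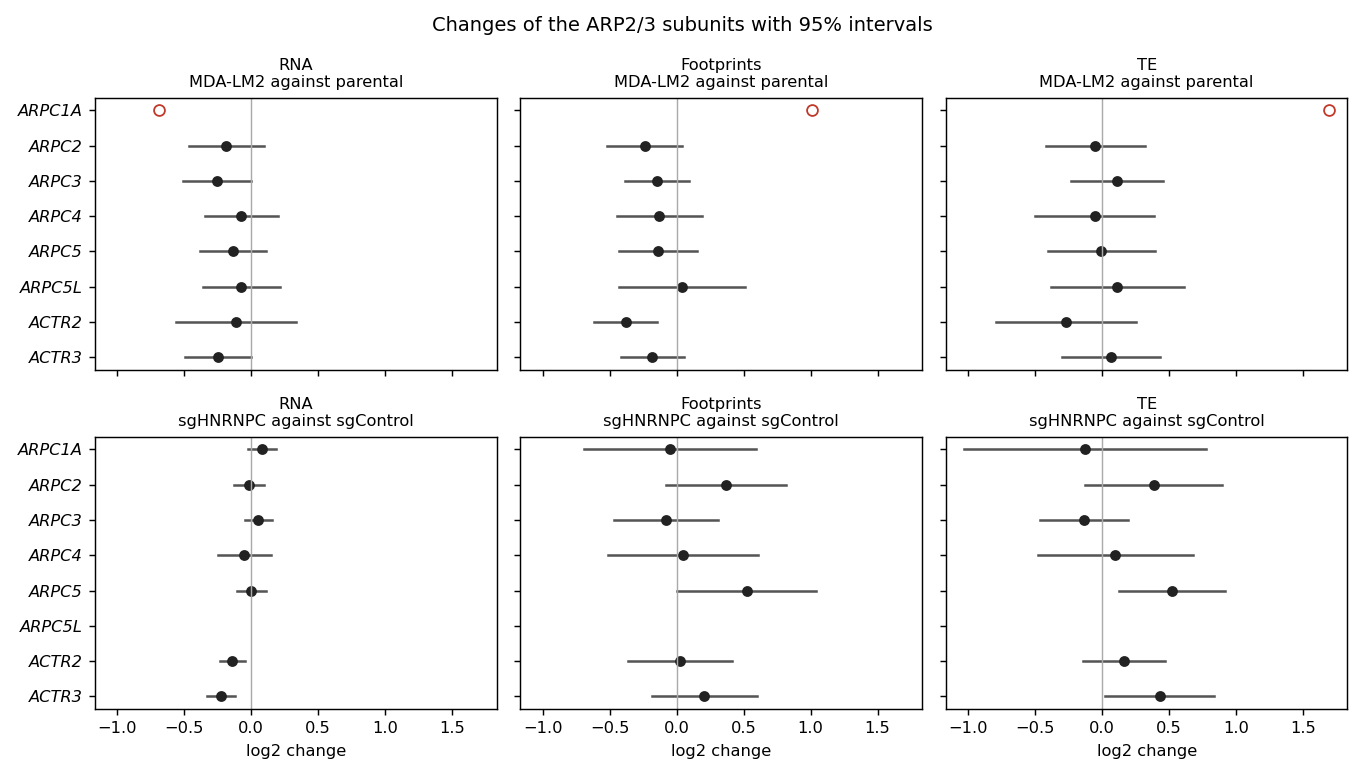
Log2 change (horizontal axis) in RNA, footprints and TE of each subunit in MDA-LM2 against parental cells (top) and in sgHNRNPC against sgControl cells (bottom), with points for estimates and lines for 95% intervals by limma. ARPC1A in the top row is an open point without interval, since this contrast chose it, and lies at 1.70 in TE. The TE intervals of the other 7 subunits have upper ends of at most 0.61.

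The 3 genes whose values followed those of ARPC1A most closely over the 8 libraries of the first table were CEP250, CNPY2 and MAPK9, with Pearson r of 0.961, 0.955 and 0.947. For this measure each gene's log2 values were centred within the RNA and within the footprint libraries, and the libraries are those of the contrast that chose ARPC1A. CEP250 had log2 changes of -0.15 in RNA and 0.21 in footprints, CNPY2 of -0.15 and 0.33, and MAPK9 of -0.11 and 0.23, all smaller than those of ARPC1A. The other subunits had r between -0.438 and 0.11 with ARPC1A.

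The sgHNRNPC and sgControl lines were compared to find mRNAs that depend on HNRNPC. The rule that chose the subunits did not use this contrast, although earlier results of these data were known. ARPC1A RNA was 1186 and 1175 in sgControl and 1232 and 1257 in sgHNRNPC cells, which is 0.076 ± 0.05 (SE) on the log2 scale (adjusted p 0.36, limma). Its footprints were 22.3 and 20.8 in sgControl and 30.9 and 13.8 in sgHNRNPC cells, so that 1 sgHNRNPC replicate lay above and the other below both controls. The log2 TE change was -0.13 ± 0.40 (SE), with a 95% interval from -1.03 to 0.77 and an adjusted p of 0.946, and it was 0.44 without sgHNRNPC replicate 2 and -0.70 without sgHNRNPC replicate 1. The upper end of that interval is a fold of 1.71, so a rise below this could not be told from none at this precision.

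The mRNAs of both actin-related proteins fell after the knockdown. ACTR3 RNA was 1370 and 1417 in sgControl and 1216 and 1169 in sgHNRNPC cells, so it fell to 85.6% of control (log2 change -0.22 ± 0.05 SE; adjusted p 0.000796, limma). ACTR2 RNA was 1945 and 1910 against 1752 and 1741, and fell to 90.6% (log2 change -0.14 ± 0.05 SE; adjusted p 0.0252, limma). Both sgHNRNPC replicates were below both controls for each gene. ACTR2 and ACTR3 hold the CUUUUUU matches shown above, as does ARPC4, whose log2 RNA change was -0.051 ± 0.10 (SE; adjusted p 0.792, limma). The adjusted p of ACTR3 lay between 0.00241 and 0.0354 when a lysate of either line was left out. That of ACTR2 was then 0.0573 to 0.152, and 0.0898 after quantile normalisation, so its call rested on all 4 lysates and on the scaling.

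These 2 were the called genes among 7 subunits tested in RNA, where 16% of 4283 genes were called and 11.3% were called lower. The median SE was 0.053 in the 7 and 0.082 over all genes, so a given change was called more readily in the subunits. Of all RNA calls 29.5% were higher, and 43.2% after quantile normalisation. ARPC5L was not tested because its footprints averaged under 10, at 9.28 and 10.1 in sgControl and 9.77 and 8.07 in sgHNRNPC cells, and its RNA of 390 and 361 against 352 and 387 overlapped. The remaining subunits had RNA changes from -0.051 (ARPC4) to 0.076 (ARPC1A) on the log2 scale. Both sgHNRNPC replicates were outside the controls in 2 of 7 subunits upward and 2 of 7 downward, and in 20.2% and 34.6% of all genes.

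No footprint change of ACTR3 or ACTR2 was called. ACTR3 footprints were 54.8 and 53.9 in sgControl and 55.1 and 71.6 in sgHNRNPC cells, and ACTR2 footprints were 51.6 and 57.8 against 54.5 and 56.5. Their log2 footprint changes were 0.21 ± 0.19 and 0.02 ± 0.19 (SE), and their TE changes were 0.43 ± 0.18 and 0.16 ± 0.14, with adjusted p of 0.626 and 0.768 by limma. The TE change of ACTR3 was 0.22 without sgHNRNPC replicate 2 and 0.64 without sgHNRNPC replicate 1.

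ARPC5 had the largest footprint and TE estimates of the 7 subunits in the knockdown. Its footprints were 22.7 and 20.1 in sgControl and 29.9 and 32.3 in sgHNRNPC cells, with both sgHNRNPC replicates higher, next to overlapping RNA of 1194 and 1350 against 1233 and 1309. The log2 change was 0.52 ± 0.25 (SE) in footprints and 0.52 ± 0.18 in TE, with unadjusted p of 0.0494 and 0.0155 and adjusted p of 0.648 and 0.570 by limma. ARPC2 footprints were 30.8 and 39.6 against 40.1 and 51.5, which is 0.37 ± 0.22 (SE) on the log2 scale (adjusted p 0.726, limma).

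By limma, 0 of 7 subunits passed in footprints, where 0.0233% of all genes did, and 0 of 7 in TE, where 0% did. At an unadjusted p under 0.05 there was 1 subunit in footprints (ARPC5), against 329 of 4283 genes, and 2 in TE (ARPC5 and ACTR3, both higher), against 332. Logistic regression called 0, and its share of calls over all genes is not given. Both sgHNRNPC replicates were above both controls in 3 of 7 subunits in footprints and in 20.8% of all genes. In TE they were above in 4 of 7 and below in 1 of 7, against 22.6% and 13.9% of all genes. The median TE change of the 7 was 0.17 on the log2 scale, against 0.058 over all genes.

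**Figure D4:**
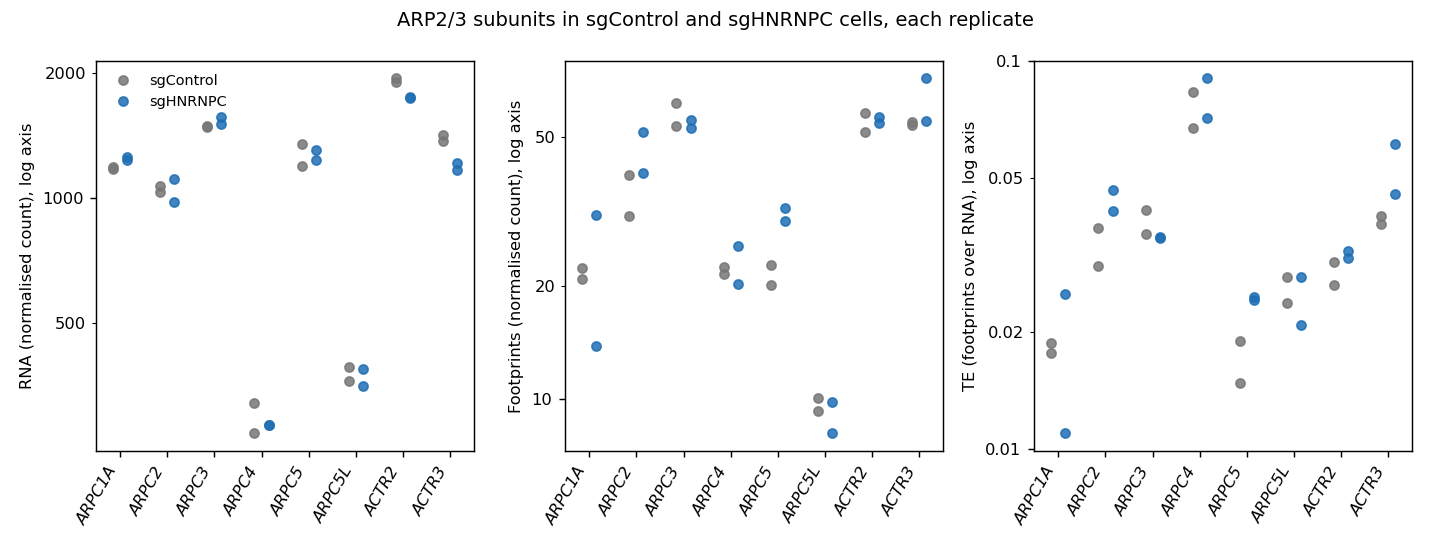
Normalised RNA count, normalised footprint count and TE (vertical axes, log scale) of the 8 subunits, with each point a replicate of sgControl (grey) or sgHNRNPC (blue) cells. ACTR2 and ACTR3 are lower in RNA in both sgHNRNPC replicates, ARPC5 is higher in footprints, and the footprint replicates of ARPC1A lie at 30.9 and 13.8 in sgHNRNPC cells on either side of the controls.

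**Figure D5:**
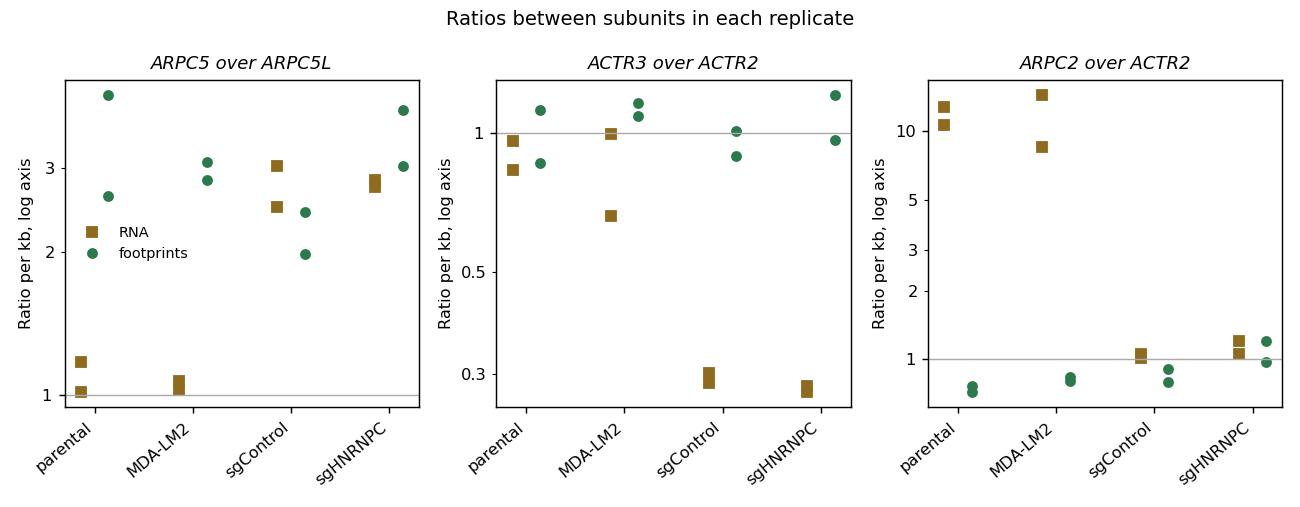
Ratio per kb (vertical axes, log scale) of ARPC5 over ARPC5L, ACTR3 over ACTR2 and ARPC2 over ACTR2 in RNA (squares) and footprints (circles), with each point a replicate of parental, MDA-LM2, sgControl or sgHNRNPC cells and a line at 1. The footprint ratio of ACTR3 to ACTR2 lies between 0.859 and 1.21 in all 4 lines, while the RNA ratio is 0.662 to 0.994 in parental and MDA-LM2 cells and 0.274 to 0.302 in sgControl and sgHNRNPC cells.

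The rest of the branched-actin machinery was followed through a list of 72 genes for activators, inhibitors, GTPases, capping, turnover and elongation of filaments. In MDA-LM2 against parental cells, 54 of them were tested. In footprints 12 were lower and 2 higher, where 7.03% of all genes were called lower and 5% higher. The median SE in footprints was 0.16 in the list and 0.221 over all genes, so a given change was called more readily in the list. In RNA 6 of 54 were called, all lower, where 15.2% of all genes were called. This count changed with the lysate left out, and the share of all genes called in such fits is not given. In TE 0 passed by limma, and 2 of 54 had an unadjusted p under 0.05, against 455 of 8393 genes. Logistic regression called 3, and its share of calls over all genes is not given. The median footprint change was -0.11 on the log2 scale, against -0.010 over all genes. In footprints the split was 9 lower and 2 higher with equal totals and 8 lower and 1 higher after quantile normalisation, where 1043 and 912 of 8393 genes were called. Fewer of the list were called when a lysate was left out. In RNA it was 5 lower and 3 higher with equal totals and 5 lower and 1 higher after quantile normalisation, where 1492 and 1190 genes were called.

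Cortactin, encoded by CTTN, stabilises ARP2/3 branches, and its footprints fell from 204 ± 22.5 to 113 ± 1.2 (SD, n = 2). On the log2 scale this is -0.85 ± 0.13 (SE; adjusted p 9.37e-06, limma). Its RNA fell too, from 2588 ± 120 to 1639 ± 130 (SD, n = 2), by 0.66 on the log2 scale (adjusted p 0.0118, limma), although that call was lost without parental replicate 1 (0.171) or 2 (0.0782). Its TE change was -0.19 ± 0.17 (SE), so CTTN was lower in both kinds of library. Of 5 GTPases listed upstream of the complex, 4 were tested and 4 were called lower in footprints, where 7.03% of all genes were: RAC1 (log2 change -0.43), RAC2 (-0.69), CDC42 (-0.39) and RHOA (-0.32), with adjusted p of 0.0126, 0.000528, 0.0182 and 0.0448 by limma. This group was picked out after its values were seen. None of the 4 was called in RNA, where the log2 changes were -0.23 for RAC1, -0.15 for RAC2, -0.44 for CDC42 and 0.036 for RHOA, so that CDC42 was as low in RNA as in footprints. The call of RHOA was lost with equal totals and after quantile normalisation (adjusted p 0.101 and 0.176), and that of CDC42 after quantile normalisation (0.0759). With a lysate left out, the call of RAC2 held each time, that of RAC1 was lost without parental replicate 1, that of CDC42 without either parental replicate or MDA-LM2 replicate 1, and that of RHOA without parental replicate 1 or either MDA-LM2 replicate.

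DSTN, which depolymerises filaments, fell in footprints by 0.54 and in RNA by 0.76 on the log2 scale (adjusted p 0.00313 and 0.00475 by limma). CAPZA2, a subunit of the capping protein, fell in footprints by 0.64 (adjusted p 0.00534). In RNA, PICK1, an inhibitor of the complex, and TMSB4X, which sequesters actin monomers, fell by 0.80 and 0.58 (adjusted p 0.0166 and 0.026). Calls were lost for PICK1 and TMSB4X in RNA without either parental replicate, for CAPZA2 without parental or MDA-LM2 replicate 2, and for DSTN in footprints without parental replicate 1, all still lower. The WAVE regulatory complex and the WASH complex, with 5 and 6 tested members, had 0 calls in RNA, footprints and TE. The footprint calls that were higher were WHAMM, an activator, and ENAH, an elongation factor, with log2 changes of 1.31 and 0.76 (adjusted p 0.0497 and 0.0219 by limma), and both calls were lost without parental replicate 1 (0.43 and 0.0504), among others. With a lysate left out the change of WHAMM ran from 0.65 to 1.97 and that of ENAH from 0.57 to 0.94. These genes lie outside the naming rule and were chosen after their values were seen.

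In the knockdown, 35 of the list's genes were tested, with 6 lower in RNA, where 16% of all genes were called and 11.3% lower. The median SE in RNA was 0.069 in the list and 0.082 over all genes. The count was 3 after quantile normalisation, where 530 of 4283 genes were called, and it was lower than 6 with any lysate left out. By limma 0 were called in footprints or TE, where 0 and 2 had an unadjusted p under 0.05. DIAPH3, a formin, fell in RNA from 599.6 ± 15.2 to 459 ± 27.7 (SD, n = 2; log2 change -0.39 ± 0.07 SE; adjusted p 4.78e-05, limma). CAPG, VASP and CTTN fell by 0.28, 0.26 and 0.23 (adjusted p 0.0051, 0.0249 and 0.000868). The calls of DIAPH3 and CTTN held with each lysate left out. That of CAPG was lost without sgControl replicate 1 or sgHNRNPC replicate 2, and that of VASP without sgControl replicate 2 or either sgHNRNPC replicate. CTTN, named because it was called, was lower in RNA in both comparisons, which share no library. The share of all genes lower in both was not counted. In the knockdown its footprint change was -0.085 ± 0.21 (SE; adjusted p 0.955, limma) on the log2 scale.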

How the data were processed

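Ribosome footprints and RNA from 4 lines were analysed, with 2 replicates each (16 libraries), grouped by the sample titles. Both tables hold a normalised signal per transcript that the authors made by aligning reads with Bowtie2 (version 2.3.5) to 1 mRNA per gene, counting them (footprints after trimming with cutadapt 2.3 and collapsing of molecular identifiers) and scaling RNA and footprints separately by median-of-ratios factors. Every deposited RNA value was a whole multiple of 1 step per library (0.883 to 1.11, tolerance 0.01), which gives the reads stated for RNA. Footprint values fall on no step, so their depth is unknown and no interval that needs it was computed. The study's methods describe an optional correction of footprint counts for local stalling of ribosomes. They do not say whether these values had it. The tables were normalised separately and were tested separately. Whether the counting used strand is not given in the sources used here. No subunit shares exon bases with an annotated gene on the opposite strand.

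Identifiers were matched to GENCODE 44 on hg38, the build in the submitters' processing notes (97.9% matched in either table). Genes with means of at least 10 in the RNA and in the footprint libraries of a table were tested with limma 3.58.1 (R 4.3.3) on log2(value + 1), with a variance trend and the interaction contrast for TE. Fold changes are on this scale and understate low genes. Tests were two-sided, with Benjamini-Hochberg adjustment over all genes and calls at an adjusted p under 0.05. The tests were tried on simulated tables. Intervals are 95% intervals of the fit. Python 3.11.15 with pandas 2.3.3, numpy 2.4.6 and matplotlib 3.10.9 was used for the rest.

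Members, lists and tests were chosen with earlier results of these data known. The text names all subunits, HNRNPC, the 3 genes most like ARPC1A, and of the 72 listed actin genes up to 4 rises and 4 falls per measure among calls with means of at least 50. The GTPases, named as a group, include RAC1, CDC42 and RHOA, which lie outside that rule and were chosen after their values were seen. Alternatives were an added value of 0.5 or 5, no filter, a minimum mean of 50, quantile normalisation, equal totals, robust moderation, a term for the replicate number, TE within each lysate, each lysate left out, an unadjusted p under 0.01, and logistic regression, the test of the study, which takes reads as units.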

Additional observations from a re-analysis of the deposited data

How the results depend on the processing

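Settings that keep all lysates kept the direction and the call of 404 subunit values, turned the sign of 12, ended 3 calls and moved 1 value by more than its error. After rescaling to equal totals the RNA changes of ARPC4, ARPC5, ARPC5L and ACTR2 in MDA-LM2 turned to 0.095, 0.035, 0.096 and 0.056 on the log2 scale, and the TE changes of ARPC3, ARPC5L and ACTR3 to -0.0057, -0.00163 and -0.0467, and in the knockdown ARPC5 RNA and ACTR2 footprints turned to -0.018 and -0.00386. After quantile normalisation ARPC5L RNA in MDA-LM2 turned to 0.015, and in the knockdown ARPC2 RNA and ACTR2 footprints turned to 0.020 and -0.00841. None of these values was called under any of these settings. The count of subunits called in footprints in MDA-LM2 was 0 under equal totals and under quantile normalisation, instead of 1, where 1043 and 912 of 8393 genes were called. In the knockdown RNA it was 1 instead of 2 after quantile normalisation, where 530 of 4283 genes were called. For the actin list in MDA-LM2, the RNA count of 6 became 10 with no filter and 12 with the replicate number as a block, the footprint count of 14 became 9 after quantile normalisation, and the TE count of 0 became 1 at an unadjusted p under 0.01 and 3 by logistic regression. In the knockdown RNA its count of 6 became 1 with a minimum mean of 50, where 7 genes were left, and 3 after quantile normalisation. The cause was not tested. Except for the rescaled fits, the share of all genes called under these settings is not given, so these counts are no result about the list. Under equal totals 0 genes of the whole first table were called in TE, as under quantile normalisation.

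With each lysate left out in turn, the subunits called numbered 0 to 3 in RNA and 0 to 1 in footprints in MDA-LM2, and 1 in RNA in each fit of the knockdown. The actin list gave 1 to 28 in RNA and 6 to 9 in footprints in MDA-LM2, and 2 to 4 in RNA in the knockdown. The TE change of ARPC1A in MDA-LM2 ran from 1.55 to 1.84. Changes in MDA-LM2 that crossed 0 were, in RNA, ARPC4 (-0.15 to 0.0047), ARPC5L (-0.19 to 0.044) and ACTR2 (-0.40 to 0.18), in footprints, ARPC4 (-0.30 to 0.038), ARPC5 (-0.30 to 0.018) and ARPC5L (-0.15 to 0.23), and in TE, ARPC2 (-0.26 to 0.15), ARPC4 (-0.18 to 0.072), ARPC5 (-0.17 to 0.16) and ACTR3 (-0.079 to 0.21). Those in the knockdown were, in RNA, ARPC2 (-0.11 to 0.076), ARPC4 (-0.17 to 0.070) and ARPC5 (-0.088 to 0.089), in footprints, ARPC1A (-0.61 to 0.50), ARPC3 (-0.18 to 0.019), ARPC4 (-0.12 to 0.21) and ACTR2 (-0.059 to 0.10), and in TE, ARPC1A (-0.70 to 0.44) and ARPC4 (-0.065 to 0.26).

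Replicate numbers are shared between lines, but nothing says that they mark a batch. Deviations of same-numbered samples of the 2 lines correlated at 0.234 in RNA and 0.0443 in footprints in the first table, and at -0.00377 and 0.0281 in the second. With the replicate number as a block, 0, 1 and 0 subunits were called in RNA, footprints and TE in MDA-LM2 and 2, 0 and 0 in the knockdown, as without it. A quasi-likelihood test on RNA reads was not run. Footprint values were lower in the knockdown table, where the subunits stood between 8.07 and 71.6, and the depth behind them is unknown.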

Other observations

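Parental and sgControl cells both derive from MDA-MB-231 but come from tables that were normalised separately, so each difference below is centred on the median over the 4280 genes tested in both and carries no test. Over these genes, which are not independent replicates, the mean footprint values of both lines correlated across genes at a Pearson r of 0.944 (Spearman 0.920) on the log2 scale, and the RNA values at 0.590 (Spearman 0.530). The SD of the log2 difference was 0.359 in footprints and 1.35 in RNA.

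ACTR2 RNA was 4.92-fold higher in sgControl than in parental cells after centring, at the 98.1 percentile of all genes, while its footprints stood at a ratio of 0.924. ARPC2 RNA stood at a ratio of 0.442 and its footprints at 1.07. The ratio of ARPC2 to ACTR2 within a library, which needs no scaling between tables, was 12.7 and 10.6 per kb in parental RNA and 1.01 to 1.06 in sgControl RNA, against 0.717 to 0.768 and 0.793 to 0.910 in footprints. The RNA ratio of ACTR3 to ACTR2 was 0.959 and 0.830 in parental and 0.287 and 0.302 in sgControl cells. ARPC5 stood at a ratio of 1.5 in RNA and 0.710 in footprints. TE, which divides by RNA, carries these differences too, and experiment and line cannot be told apart.

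The low footprint level of ARPC1A was seen in both control lines. Relative to the median of the other 7 subunits per kb it was 0.264 and 0.362 in parental and 0.465 and 0.434 in sgControl cells. In the sgHNRNPC replicates it was 0.626 and 0.218. ARPC5L was also low in footprints per kb, with means of 76.5 against 56.5 for ARPC1A in parental and 20.94 against 19.35 in sgControl cells. In sgHNRNPC cells the means were 19.3 for ARPC5L and 20.08 for ARPC1A, with overlapping replicates.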
